A study of Rattus norvegicus with 9 samples.

Results

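The miR-29 family comprises 3 mature miRNAs of the 3p arm in rat, miR-29a-3p, miR-29b-3p and miR-29c-3p, and was followed here through the serum of rats treated with rotenone, which blocks complex I of the mitochondrial respiratory chain and is used to model Parkinson's disease. The members were taken by name from the deposited matrix, and all 3 were found among its 567 miRNAs. All 3 were also among the 294 miRNAs with enough counts to be tested. Small RNA was sequenced in 9 libraries from male Wistar rats labelled wildtype, with 3 groups of 3. Control (CNT) animals were one group. The early group (EPD) had rotenone at 2.0 mg per kg per day by intraperitoneal injection for 10 days, and the late group (LPD) had it for more than 40 days, to what the series text calls the terminal stage. The treatment label reads alike in all 9 samples, Control included, and what the Control animals were given is not stated. The sources used here give neither the ages of the rats, beyond calling them adult, nor whether serum was pooled between animals.

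The members were chosen by name, but with earlier results of these data known, namely their lower counts in LPD than in Control. The members' values in LPD against either other group are therefore given as a description, with no p-value, and where a fit is said to have passed the threshold this describes the fit only. Tests are given for EPD against Control, for the make-up of the family, for the opposite arms of the hairpins and for 2 lists of other miRNAs, which were also written with earlier results of these data known. The p-values of the listed miRNAs therefore describe the fits only.

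miRNAs are short RNAs that guide Argonaute proteins to messenger RNAs, mostly through pairing of the seed, bases 2 to 8 from the 5′ end. The miR-29 family is known above all for repressing collagens and other genes of the extracellular matrix, and is made in fibroblasts, hepatic stellate cells, neurons, muscle and many other cells. Its members come from 2 pairs of neighbouring hairpin genes, Mir29b1 beside Mir29a and Mir29b2 beside Mir29c. In serum, miRNAs are carried by protein complexes and vesicles. A serum library cannot tell fewer releasing cells from less RNA released per cell.

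The 3 sequences are shown because they decide what the counts can separate. They were taken from the RefSeq table of build GRCr8, with the seed in capitals.
miR-29a-3p: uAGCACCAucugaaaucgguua
miR-29b-3p: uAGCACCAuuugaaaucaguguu
miR-29c-3p: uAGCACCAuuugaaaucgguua
The seed AGCACCA was shared by all 3, and by no other of the 693 mature rat names in that table. Counted from the 5′ end, miR-29a-3p and miR-29c-3p differed by a single substitution in 22 bases, C10U. From miR-29c-3p to miR-29b-3p there were 3 substitutions, G18A, U21G and A22U, and miR-29b-3p was 1 base longer. How reads with an error at base 10 were divided between miR-29a-3p and miR-29c-3p is not stated in the sources used here.

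The hairpins of miR-29b are shown because the mature strand, in capitals, was the same in both.
Mir29b1: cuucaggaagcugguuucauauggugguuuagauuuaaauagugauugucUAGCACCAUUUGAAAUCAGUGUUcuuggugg
Mir29b2: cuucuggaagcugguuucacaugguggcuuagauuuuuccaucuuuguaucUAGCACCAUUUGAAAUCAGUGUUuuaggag
Counts of miR-29b-3p could thus come from either pair of genes, whereas miR-29a-3p and miR-29c-3p each come from 1 pair.

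The libraries held 1108167 to 1539557 counts in Control, 1136537 to 1668807 in EPD and 132609 to 305019 in LPD. Among LPD libraries, 3 to 39 miRNAs had between 1 and 9 counts, against 127 to 157 in the others. From the number of miRNAs without counts, each molecule was estimated to stand for 12.3 to 49.1 counts in LPD and for 1.07 to 3.09 in Control and EPD, assuming the mean profile of Control and EPD. Control 2 stood apart: miR-122-5p, the main miRNA of hepatocytes, accounted for 44.3% of the counts in this library, against 1.07 to 5.14% in the other 8. The 5 liver miRNAs listed together took 46.6% of Control 2 and 2.13 to 6.35% of each other library. The 6 red cell miRNAs found, of 8 names listed, took 5.66 to 19.1% in Control, 15.2 to 34.6% in EPD and 27.0 to 38.5% in LPD. The 5 platelet and myeloid miRNAs took 7.72 to 9.07%, 10.0 to 19.8% and 6.99 to 9.96%, and the 4 muscle miRNAs 0.0951 to 0.854%, 0.0282 to 0.492% and 0.0758 to 1.23%. Of these marker miRNAs, miR-802-5p of liver and miR-133b-3p of muscle had no count in LPD. A count of 0 there allows up to 3 estimated molecules, or 244 to 663 units of the scaled counts used here (CPM, defined next). The 6 Control and EPD libraries were all below 244 CPM for both, apart from Control 2 at 525 for miR-802-5p, so a lower level in LPD was not measurable at this depth. The part of these differences in the miR-29 values was not tested, beyond the fits without each library.

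miR-29a-3p, the most abundant member, was among the most abundant miRNAs of rat serum. In CPM, counts put on a common library size by trimmed means (TMM), it stood at 20516, 60674 and 36362 in Control 1, 2 and 3. In EPD 1, 2 and 3 it stood at 49234, 64700 and 60162, and in LPD 1, 2 and 3 at 8771, 9115 and 15131. All LPD libraries lay below all others, while EPD and Control overlapped because of Control 2. By rank within a library it was 13th, 4th and 6th in Control, 3rd, 2nd and 3rd in EPD, and 23rd, 19th and 12th in LPD. The group means were 39184 ± 20227 CPM in Control, 58032 ± 7950 in EPD and 11006 ± 3577 in LPD (SD, n = 3). Its counts amounted to 2648, 2026 and 2295 in the LPD libraries and to between 25193 and 95822 in the others.

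miR-29b-3p, the member that both gene pairs encode, was the least abundant by group mean. Its CPM was 2807, 4797 and 2849 in Control, 5934, 6973 and 5864 in EPD, and 414, 751 and 2017 in LPD. The 3 groups did not overlap: each EPD library was above each Control library, and each LPD library below. The means were 3484 ± 1137 CPM, 6257 ± 621 and 1061 ± 845 (SD, n = 3). In LPD the highest library was 4.87 times the lowest, against 1.19 times in EPD.

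miR-29c-3p, which differs from miR-29a-3p by the base at position 10, varied most within Control. It had 1187, 10206 and 4010 CPM in Control, 5594, 8696 and 8261 in EPD, and 1471, 886 and 2275 in LPD. Control 1 lay within the LPD range and Control 2 above every EPD library, so only EPD and LPD were separate. The means were 5134 ± 4613 CPM, 7517 ± 1679 and 1544 ± 697 (SD, n = 3).

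**Figure D1:**
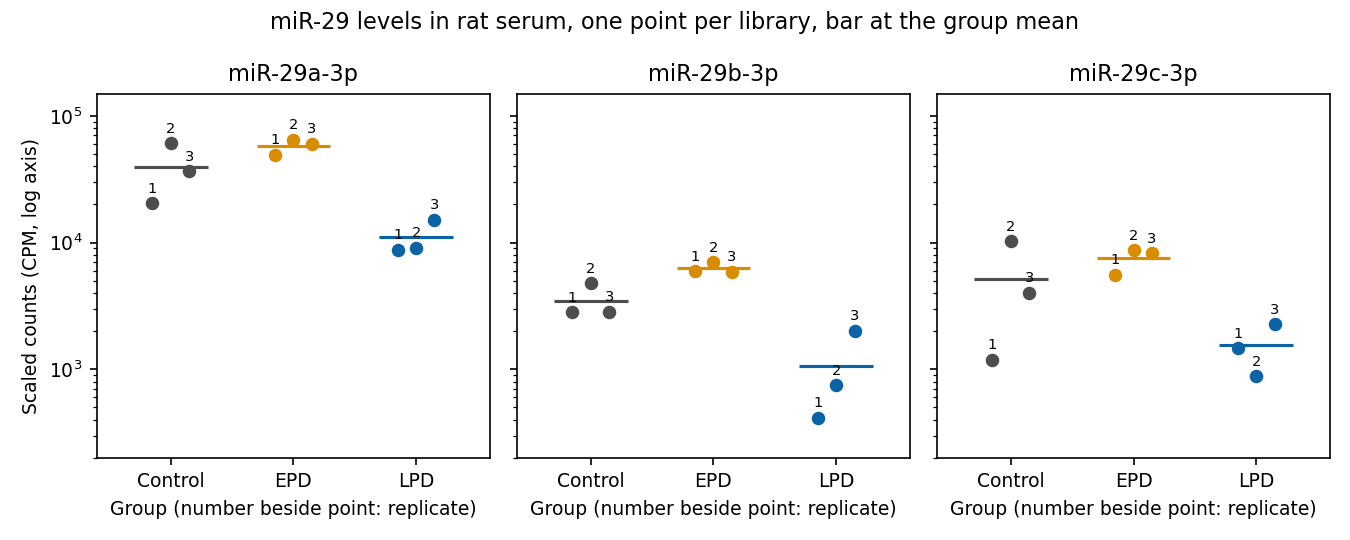
Scaled counts of miR-29a-3p, miR-29b-3p and miR-29c-3p (CPM, log axis) in Control, EPD and LPD, with a point per library, its replicate number and a bar at the group mean. The LPD libraries are the lowest for miR-29a-3p and miR-29b-3p, and for miR-29c-3p Control 1, at 1187 CPM, lies among them.

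As shares of all counts, which need no scaling factor, the 3 members together made up 2.72, 5.06 and 4.86% of Control 1, 2 and 3. They made up 5.33, 9.18 and 7.38% of the EPD libraries and 1.05, 1.14 and 2.22% of the LPD libraries. On this scale the EPD libraries all lay above, and the LPD libraries all below, the Control libraries. By member, miR-29a-3p and miR-29b-3p were higher in EPD than in Control without overlap, beside 5.78% of all miRNAs tested. The same 2 members were lower in LPD than in Control without overlap (36.1% of all), and all 3 were lower in LPD than in EPD (43.5% of all). The Wilson 95% intervals ran from 5.02 to 5.10% in Control 2 and from 5.30 to 5.36% in EPD 1, the nearest pair. They take each count as independent and do not cover the spread between libraries. Where reads repeat the same molecule, they are too narrow even for counting error.

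How Control 2 compared with EPD depended on whether miR-122-5p was counted in the total. Over counts other than miR-122-5p, a denominator chosen after the values were seen, the family took 2.78, 9.08 and 5.13% of Control and 5.39, 9.30 and 7.72% of EPD. Control 2 then lay within the EPD range, as it did in CPM for the sum of the family (75676 against 60762 to 80369). miR-29b-3p alone took 0.311, 0.321 and 0.321% of all counts in Control and 0.520, 0.796 and 0.583% in EPD. Over counts other than miR-122-5p it took 0.319, 0.575 and 0.338% in Control and 0.526, 0.807 and 0.610% in EPD, so that Control 2 and EPD 1 overlapped.

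After 10 days of rotenone no member differed from Control by the test. In EPD against Control the log2 fold change was 0.57 for miR-29a-3p (SE 0.40), 0.84 for miR-29b-3p (SE 0.52) and 0.55 for miR-29c-3p (SE 0.66). Each had an adjusted p of 0.995 in edgeR's quasi-likelihood test, and none of the 3 had an unadjusted p under 0.05 (0.19, 0.139 and 0.428). Over all miRNAs 0.0% were called, 11 of 294 had an unadjusted p under 0.05, and the median log2 fold change was -0.05. DESeq2 called 1 miRNA and limma-voom 0, and neither called a member. In CPM, 1 of 3 members, miR-29b-3p, was higher in EPD without overlap, beside 4.76% of all miRNAs tested. Without Control 2 the log2 fold changes were 1.13, 1.27 and 1.62 (adjusted p = 0.375, 0.69 and 0.503 in edgeR), and without Control 1 that of miR-29c-3p was 0.14.

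After more than 40 days miR-29a-3p and miR-29b-3p were lower than in every Control library, while miR-29c-3p overlapped with Control and did not pass the threshold. The log2 fold change of LPD against Control was -1.83 for miR-29a-3p (SE 0.41, 3.56-fold lower), -1.72 for miR-29b-3p (SE 0.53, 3.30-fold lower) and -1.73 for miR-29c-3p (SE 0.68, 3.33-fold lower). The median over all miRNAs tested was -1.04. Over the 124 miRNAs with counts in all 9 libraries the median was 0.04, and the members had -1.54, -1.43 and -1.44 in that fit. The LPD libraries each had 370 to 414 miRNAs without counts, against 86 to 143 in the others. This set of 124 was thus selected in part on detection in LPD, and its median is not that of an unselected background. Of the 3 members, miR-29a-3p and miR-29b-3p passed the threshold as lower, beside 32.7% of all miRNAs. Neither overlapped with Control, as was so for 41.8% of all miRNAs in that direction. The family was chosen with this comparison known, so nothing is read from these counts.

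Control 2 and single LPD libraries moved these values. Without Control 2 the 3 members stood at -1.24, -1.30 and -0.66, and only miR-29a-3p passed. miR-29b-3p also missed the threshold without LPD 1 (-1.23) or LPD 2 (-1.53), and stood at -2.31 without LPD 3. Without Control 1, whose miR-29c-3p was low, that member stood at -2.23 and passed.

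Set against EPD, all 3 members were lower in each LPD library. LPD against EPD and LPD against Control share the LPD libraries, and their values are set side by side only. LPD against EPD gave -2.40 for miR-29a-3p (SE 0.42, 5.27-fold lower), -2.56 for miR-29b-3p (SE 0.55, 5.92-fold lower) and -2.28 for miR-29c-3p (SE 0.69, 4.87-fold lower). The median over all miRNAs was -0.92. All 3 members passed and none overlapped, beside 32.7% called lower and 45.6% lower without overlap among all miRNAs. These counts rest on the values behind the choice of the family, and nothing is read from them. miR-29c-3p missed the threshold without EPD 2, EPD 3, LPD 1 or LPD 2, at -2.21, -2.25, -2.23 and -2.08, and with limma-voom, at -2.41. miR-29b-3p stood at -2.16 without LPD 1 and at -3.25 without LPD 3.

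**Figure D2:**
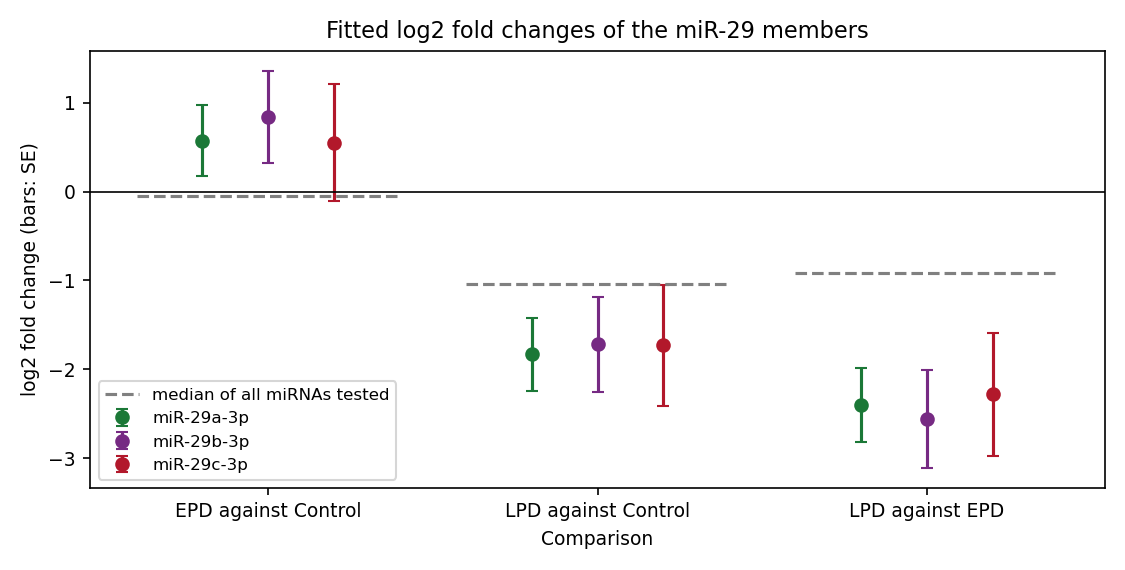
Fitted log2 fold changes of the 3 members (points, with bars of 1 SE) in the 3 comparisons, with the median of all 294 miRNAs tested as a dashed line. The members sit between 0.55 and 0.84 in EPD against Control, between -1.83 and -1.72 in LPD against Control and between -2.56 and -2.28 in LPD against EPD.

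**Figure D3:**
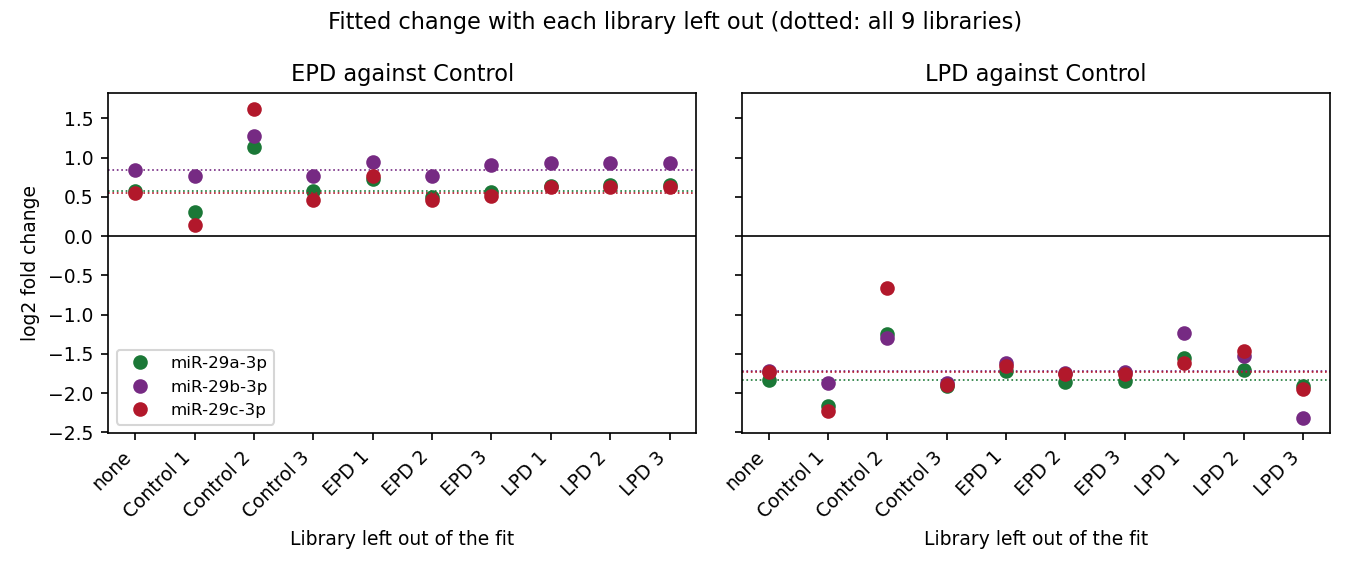
Log2 fold changes of the 3 members in EPD against Control and in LPD against Control, with no library or 1 of the 9 libraries left out of the fit (dotted lines give the values with all 9). Leaving out Control 2 moves all 3 members upward in both panels, to 1.13, 1.27 and 1.62 and to -1.24, -1.30 and -0.66.

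The estimated molecules show how much the LPD levels can carry. For miR-29a-3p they numbered 72.2, 41.3 and 186 in LPD 1, 2 and 3, and the exact Poisson 95% intervals reached up to 11042, 12352 and 17467 CPM, all below the lowest Control library at 20516. miR-29b-3p rested on 3.41, 3.40 and 24.8 estimated molecules. Its intervals ran from 97.4 to 1139, from 177 to 2068 and from 1303 to 2982 CPM. The first pair lay below every Control library, and the third took in Control 1 and Control 3, at 2807 and 2849. miR-29c-3p rested on 12.1, 4.02 and 28.0 molecules, with upper bounds of 2563, 2265 and 3288 CPM, all above Control 1 and below Control 3. In Control and EPD no member had fewer than 1216 estimated molecules. These intervals take the estimated molecule numbers, which assume the mean profile of Control and EPD, as known. They do not cover the spread between libraries. The LPD values are those behind the choice of the family, so the intervals are a description only.

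miR-29a-3p made up most of the family in every library. It accounted for 83.7, 80.2 and 84.1% of the family's counts in Control, 81.0, 80.5 and 81.0% in EPD, and 82.3, 84.8 and 77.9% in LPD. The share of miR-29b-3p was 11.5, 6.34 and 6.59% in Control, 9.77, 8.68 and 7.89% in EPD and 3.89, 6.99 and 10.4% in LPD. That of miR-29c-3p was 4.84, 13.5 and 9.28%, 9.21, 10.8 and 11.1%, and 13.8, 8.24 and 11.7%. miR-29c-3p had more counts than miR-29b-3p in 7 of 9 libraries, the others being Control 1 and EPD 1. The Control library with the lowest share of miR-29c-3p, Control 1, was also the one with the highest share of miR-29b-3p.

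The ratios within the family can only be described at this number of libraries. The log2 ratio of miR-29b-3p to miR-29a-3p was -3.40 ± 0.46 in Control, -3.21 ± 0.15 in EPD and -3.63 ± 0.75 in LPD (SD, n = 3). Exact two-sided permutation tests gave p = 0.6 between EPD and Control, 0.9 between LPD and Control and 0.5 between LPD and EPD. That of miR-29c-3p to miR-29a-3p was -3.29 ± 0.77, -2.97 ± 0.15 and -2.89 ± 0.41, with exact permutation p = 0.7, 0.7 and 0.8 in the same order. Adjusted over these 6 tests all were 0.9. The smallest p that 3 libraries against 3 allow is 0.1, so no shift of any size could have passed a threshold of 0.05, and these values do not show that the ratios were alike.

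**Figure D4:**
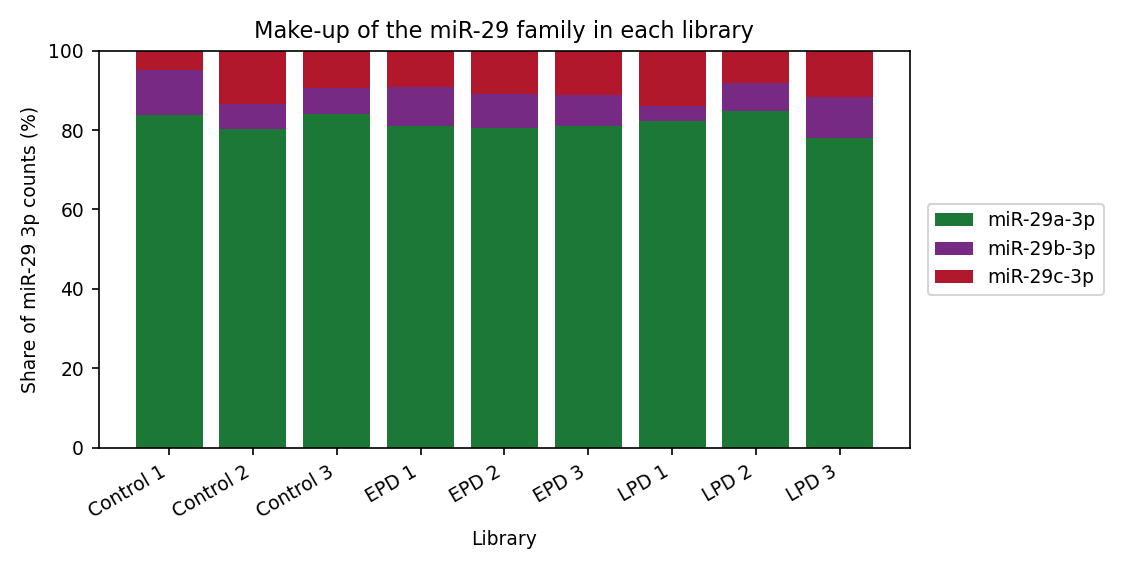
Share of the counts of the 3 members (%, stacked to 100) taken by each of them in the 9 libraries. miR-29a-3p takes 77.9 to 84.8% in every library, and the split of the remainder differs most in Control 1 and LPD 1.

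The opposite arms of these hairpins were read far less often. Their sequences, with bases 2 to 8 in capitals, show that none has the seed of the 3p arms.
miR-29a-5p: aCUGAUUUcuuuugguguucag
miR-29b-5p: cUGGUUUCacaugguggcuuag
miR-29c-5p: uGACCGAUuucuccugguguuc
The table gives miR-29b-5p from Mir29b2 alone, so counts of miR-29b-3p, from 2 hairpins, stand beside counts of a 5p arm from 1.
Over the 3 Control libraries miR-29a had 135681 counts of the 3p arm and 12 of the 5p arm, miR-29b 12137 and 17, and miR-29c 16393 and 56. In EPD the pairs were 251860 and 35, 27075 and 37, and 32633 and 48. Of the 3, only miR-29c-5p had enough counts to be tested. It had 15, 19 and 22 counts in Control, 16, 15 and 17 in EPD and 0, 0 and 5 in LPD. Its log2 fold change in EPD against Control was -0.55 (SE 1.03, adjusted p = 0.995 in edgeR), opposite in sign to that of miR-29c-3p. In CPM its EPD libraries, at 10.7 to 11.6, all lay below the Control libraries, at 12.2 to 24.3, as was so for 8.16% of all miRNAs. In LPD against Control it was -0.80 (SE 1.20, adjusted p = 0.637) and in LPD against EPD -0.25 (SE 1.20, adjusted p = 0.883). The 5 counts in LPD 3 came to 0.406 of an estimated molecule, so the level of this arm in LPD was not measurable at this depth. The same held for miR-29a-5p, with 0, 0 and 9 counts in LPD, and for miR-29b-5p, with none.

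The miRNAs whose pattern over the 9 libraries came closest to miR-29a-3p were its relatives. Likeness was measured as the root mean square distance between log2 CPM values, each miRNA centred on its own mean, over the 124 miRNAs with counts in all libraries. miR-29c-3p and miR-29b-3p were nearest to miR-29a-3p, each at 0.45, where the median of the other 123 was 1.25. They were followed by miR-146a-5p (0.49), a brake on inflammatory signalling, miR-27a-3p (0.52) and miR-221-3p (0.54). For miR-29b-3p the nearest was miR-29a-3p (0.45), then miR-27a-3p (0.58), miR-221-3p (0.66), miR-182 (0.68) and miR-125b-5p (0.69). For miR-29c-3p they were miR-29a-3p (0.45), miR-130a-3p (0.71), miR-146a-5p (0.73), miR-221-3p (0.73) and miR-29b-3p (0.78). These distances describe 9 libraries that share the scaling factors. Any part of the nearness of miR-29a-3p and miR-29c-3p that comes from reads shared between them was not tested.

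**Figure D5:**
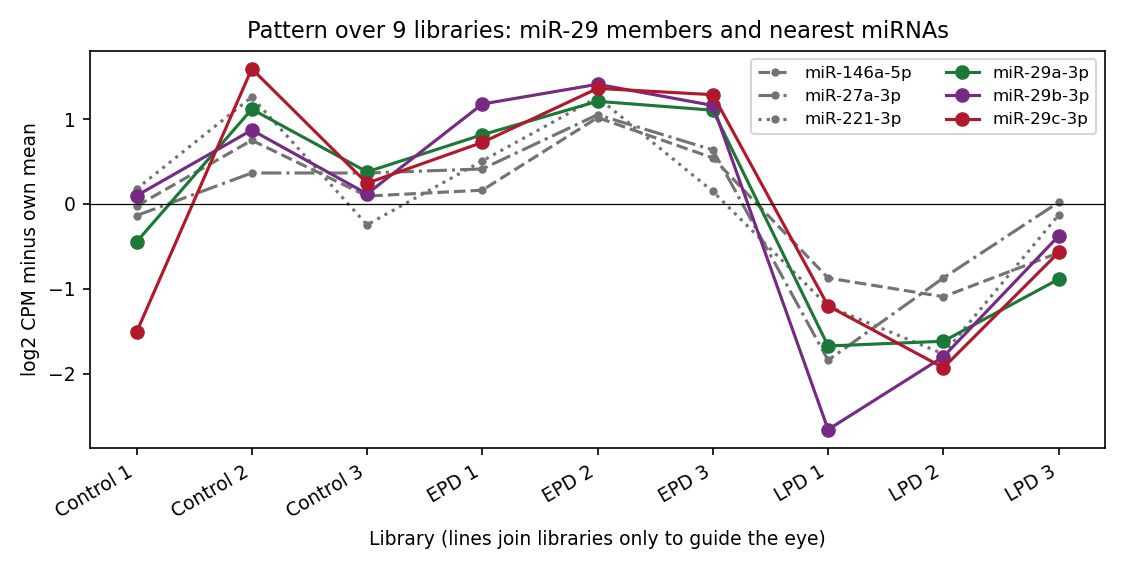
Log2 CPM of miR-29a-3p, miR-29b-3p and miR-29c-3p (coloured) and of the 3 nearest other miRNAs to miR-29a-3p (grey), each minus its own mean, in the 9 libraries. All 6 run low in LPD 1 and LPD 2 and high in EPD 2, and miR-29c-3p departs from the rest in Control 1.

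Other miRNAs described as acting on the extracellular matrix did not all move with the family. Of 10 miRNAs widely described as restraining fibrosis, other than miR-29, 3 were lower in LPD than in Control by the test and 0 higher, beside 32.7% called lower among all miRNAs, with a median log2 fold change of -0.66 beside -1.04 over all miRNAs. They were miR-200b-3p (-3.28, SE 0.63, adjusted p = 0.00522 in edgeR), miR-19b-3p (-1.57, SE 0.31, adjusted p = 0.0055) and miR-200a-3p (-1.84, SE 0.56, adjusted p = 0.0278). miR-200a and miR-200b hold epithelial cells in their state, and miR-19b-3p belongs to the miR-17 clusters. This share is near that of all miRNAs. The same 3 were called lower in LPD than in EPD, again beside 32.7% of all miRNAs, with a list median of -0.07 beside -0.92. In LPD miR-200b-3p had a mean of 88.5 CPM, under the floor of 244 to 663 CPM set for these libraries. The size of its fold against either group was thus not measurable at this depth. The LPD means of miR-19b-3p and miR-200a-3p, 608 and 436 CPM, lay within the range of that floor. The count in LPD against Control became 2 without Control 1, Control 3, LPD 1 or LPD 2, and 4 without LPD 3. That in LPD against EPD ranged from 2 to 4 when a library was left out. miR-26a-5p (0.33, SE 0.23, adjusted p = 0.308) and miR-30a-5p (-0.13, SE 0.25, adjusted p = 0.712) did not pass. Since the list was written with earlier results of these data known, its p-values describe the fit only.

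Of 9 miRNAs widely described as promoting fibrosis, 2 were lower in LPD than in Control and 0 higher, beside 32.7% called lower among all miRNAs, with a median of -0.98 beside -1.04. They were miR-199a-3p (-1.80, SE 0.33, adjusted p = 0.00522 in edgeR) and the p53-induced miR-34a-5p. The latter had no count in 2 of the 3 LPD libraries and a mean of 26.4 CPM there against 469 in Control, so its fold is not given. The floor set for LPD was 244 to 663 CPM, and the means of miR-34a-5p in Control and EPD, 469 and 623, lay within that range. Its level in LPD was thus not measurable at this depth, and its calls as lower describe the fit only. miR-21-5p, the best known of them, had 56564 ± 3116 CPM in Control, 47142 ± 9729 in EPD and 89717 ± 54091 in LPD (SD, n = 3; LPD against Control 0.67, SE 0.39, adjusted p = 0.226 in edgeR). Against EPD only miR-34a-5p was called lower in LPD, beside 32.7% of all miRNAs, with a list median of -0.21 beside -0.92. The count of 2 became 1 without Control 2, Control 3, EPD 1, EPD 2, EPD 3 or LPD 2 and 4 without LPD 3. The count of 1 became 0 without EPD 2 or EPD 3, 2 without Control 2 or Control 3, 3 without LPD 1 and 4 without LPD 3. In EPD against Control no miRNA of either list passed in edgeR, and the medians were -0.16 for the restraining and -0.26 for the promoting list, beside -0.05 over all miRNAs. Nearest to the threshold came miR-199a-3p (-1.71, SE 0.33, unadjusted p = 6.1e-04, adjusted p = 0.179 in edgeR), which passed with DESeq2 and without Control 2. This list too was written with earlier results known, and its p-values describe the fits only.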

How the data were processed

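Per the labels' protocols, serum RNA was isolated with a miRNeasy kit and sequenced after preparation with the QIAseq miRNA kit. The authors deposited whole-number counts per mature miRNA, and 0 values differed between the matrix and the single libraries. The submitters' processing notes name the build mRatBN7.2. Aligner, counting tool, annotation and any use of molecular identifiers were not given in the sources used here. Groups came from the sample titles. Nothing says which libraries came from separate animals, so p-values cover only the spread between the samples, which may be technical.

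miRNAs were kept with filterByExpr (10 counts, 15 in total). TMM scaling and the robust quasi-likelihood test of edgeR 4.0.16 (R 4.3.3) were fitted to the 3 groups together, with Benjamini-Hochberg adjustment over 294 miRNAs and a threshold of 0.05. The fit was tested on simulated data. These had no repeated counts of the same molecule, so that check does not cover the low number of molecules in LPD. Ratios within the family carry a prior of 0.5 counts. DESeq2 1.42.0, limma 3.58.1, other scalings and filters, and fits without each library were run as alternatives, 18 planned and 1 added after seeing the data. The members and the lists (2 on the matrix and 4 of marker miRNAs, written from general knowledge) were chosen with earlier results of these data known. Named miRNAs were the members, their 5p arms, listed matrix miRNAs past the threshold or with the smallest p, miR-122-5p as liver marker and the 5 nearest to each member. miR-21-5p, miR-26a-5p, miR-30a-5p, miR-802-5p and miR-133b-3p were named after their values were seen. Sequences came from the RefSeq table of build GRCr8. Since the counts used another build, no coordinates are given.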

Additional observations from a re-analysis of the deposited data

Results flagged for a closer look

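miR-29b-3p was the member for which every EPD library lay above, and every LPD library below, every Control library in CPM. Of all miRNAs tested, 4.76% were higher in EPD than in Control without overlap and 41.8% lower in LPD than in Control. The share with both was not computed, but the pattern was not particular to miR-29b-3p. miR-361-3p, for example, had log2 CPM of 7.73 to 8.23 in Control, 8.29 to 8.73 in EPD and at most 6.38 in LPD. LPD 1 and LPD 2 rested on 3.41 and 3.40 estimated molecules. The Poisson interval of LPD 3, from 1303 to 2982 CPM, took in Control 1 and Control 3. The difference between the early and the late change is LPD against EPD, which stood at -2.56 on the log2 scale. It is given as a description with no p-value: the family was chosen with its LPD values known, and the difference was not tested on values independent of that choice. Over counts other than miR-122-5p, the Control and EPD libraries overlapped.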

How the results depend on the processing

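Each log2 fold change of the 3 members kept its sign in all 19 alternatives. In LPD against Control the count of members past the threshold was 2. It was 1, with miR-29b-3p lost, with library totals and with only the 2 groups in the fit, and ranged from 1 to 3 when a library was left out. Library totals without miR-122-5p left it at 2. The replicate numbers are not said to pair the samples. Deviations from the group means correlated by -0.114 to 0.086 between same-numbered libraries and by -0.096 to 0.123 between differently numbered ones. With 3 libraries per group this cannot show that the samples were unpaired. With the replicate number as a block the members stood at -1.75, -1.89 and -1.38 in LPD against Control and at 0.65, 0.87 and 0.80 in EPD against Control, and the count of members called was the same in all 3 comparisons. Other scalings moved the median of all miRNAs in LPD against Control from -1.04 to -0.86 (library totals), -0.83 (DESeq2 size factors) and -1.18 (library totals without miR-122-5p). In the same comparison edgeR called 109 of 294 miRNAs tested. Among miRNAs with counts in all 9 libraries it called 37 of 124, and on estimated molecules 35 of 261. With only the 2 groups in the fit it called 52 of 247. In LPD against EPD these were 108 of 294, 35 of 124, 43 of 261 and 67 of 246. Of the list promoting fibrosis, 1 in place of 0 passed in EPD against Control with DESeq2, and when miRNAs missing from any library were dropped. In LPD against Control 1 in place of 2 passed without such miRNAs and with only the 2 groups. In LPD against EPD 2 in place of 1 passed with DESeq2 size factors in edgeR or without a filter, 4 with DESeq2 and 0 with only the 2 groups. Of the restraining list 1 in place of 3 passed there with limma-voom. In LPD against Control 2 of that list in place of 3 passed with library totals, limma-voom, estimated molecules or only the 2 groups. With DESeq2 4 passed.

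Group differences in the log2 ratios within the family lay between -0.43 and 0.40, and some changed sign when a library was left out. miR-29b-3p to miR-29a-3p in LPD against Control ranged from -0.60 to 0.15. That ratio kept its sign in EPD against Control, from 0.06 to 0.46, and in LPD against EPD, from -0.79 to -0.04. miR-29c-3p to miR-29a-3p ranged from -0.09 to 0.68 in EPD against Control, from -0.01 to 0.76 in LPD against Control and from -0.08 to 0.31 in LPD against EPD. miR-29c-5p in LPD against EPD ranged from -0.29 to 0.43, changing sign without LPD 1 (0.43) and LPD 2 (0.25). Without LPD 3 it had no count in LPD, and no value is given. The low number of molecules in LPD limits miR-29b-3p and miR-29c-3p most.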
